A study of Homo sapiens with 3 samples.

Results

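The genes described here are 39 genes of glycolysis and of the response to low oxygen, chosen by name: glucose and lactate transporters, glycolytic enzymes, pyruvate dehydrogenase and its kinases, the oxygen-sensing factors and a set of their target genes. The table held 38 of them among its 17576 genes, and CA9 was not analysed here. Another 2 members, CA12 and EGLN3, lay below 0.15 FPKM in every library, which left 36 members among the 11327 genes whose mean over the libraries reached 1 FPKM. FPKM counts sequenced fragments per kilobase of transcript, scaled to the size of the library. The values of a gene are given throughout in the order DMSO, then TGF-b1, then TGF-b1+DP.

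RNA came from LX-2, an immortalised line of human hepatic stellate cells, grown in medium with serum. One culture received DMSO (the vehicle), another TGF-b1, and the last TGF-b1 together with 10 μM of a small molecule labelled DP, each for 48 h. The labels name no exposure to low oxygen in any group, and they do not state the amount of TGF-b1. Each group was 1 library, so differences below are between libraries, with no replicate check, no error and no p-value. In a bulk library, fewer cells with a transcript and less of it per cell cannot be told apart.

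Of 12 stellate markers 8 reached 1 FPKM in at least 1 library, among them VIM, COL1A1, ACTA2 and PDGFRB, while DES, LRAT, HGF and PDGFRA stayed below 0.25. The list summed to 2569, 4574 and 4893 FPKM, mainly VIM (1936, 2734 and 2800) and TIMP1 (271, 1111 and 1717), both highest in TGF-b1+DP. COL1A1 (295, 604 and 349) and COL1A2 (1.22, 5.91 and 3.24) were highest in TGF-b1. The others were lowest in TGF-b1+DP, namely ACTA2 (21.1, 78.1 and 6.79), COL3A1 (34.9, 33.1 and 10.8), THY1 (2.42, 1.58 and 0.42) and PDGFRB (6.51, 6.53 and 5.24). The 4 hepatocyte markers in the table were all below 1 FPKM and summed to 0.51, 0.46 and 0.55. The macrophage and leukocyte list summed to 54.7, 25.2 and 56.7 FPKM, most of it CD68 (48.5, 21.3 and 54.8), with CD14 at 4.77, 2.94 and 0.96 and PTPRC and MARCO below 0.6. The cholangiocyte list summed to 16.1, 21.3 and 10.6 FPKM, mainly SOX9 and KRT7, with EPCAM and KRT19 below 0.3, and the endothelial list to 0.75, 0.71 and 1.84. The part of these markers in the results below was not tested.

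Cells import glucose through GLUT proteins, and glycolysis splits it to pyruvate, which lactate dehydrogenase reduces to lactate or pyruvate dehydrogenase passes to the mitochondria. Hypoxia-inducible factors (HIFs) raise transcription of many of these enzymes when the prolyl hydroxylases EGLN1 and EGLN3 lack oxygen and the HIF alpha subunits, HIF1A and EPAS1, escape degradation by the VHL ubiquitin ligase. Control of the alpha subunits is largely at the protein level, so their RNA does not measure HIF activity. Activated stellate cells are known for high glycolytic flux.

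Members of the glycolytic chain were among the most abundant transcripts in all 3 libraries. GAPDH, the enzyme that oxidises glyceraldehyde phosphate, was at 4552, 5836 and 4147 FPKM, the first, first and second most abundant gene of its library. TPI1 (triose phosphate isomerase) was at 1280, 1709 and 1190 FPKM. ENO1 (enolase) was at 1486, 1519 and 1364 FPKM. Levels spanned over 3 orders of magnitude, down to ANKRD37 at 1.02, 2.80 and 1.02 FPKM. The 38 members together made up 2.85%, 2.82% and 2.58% of the summed FPKM.

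**Figure D1:**
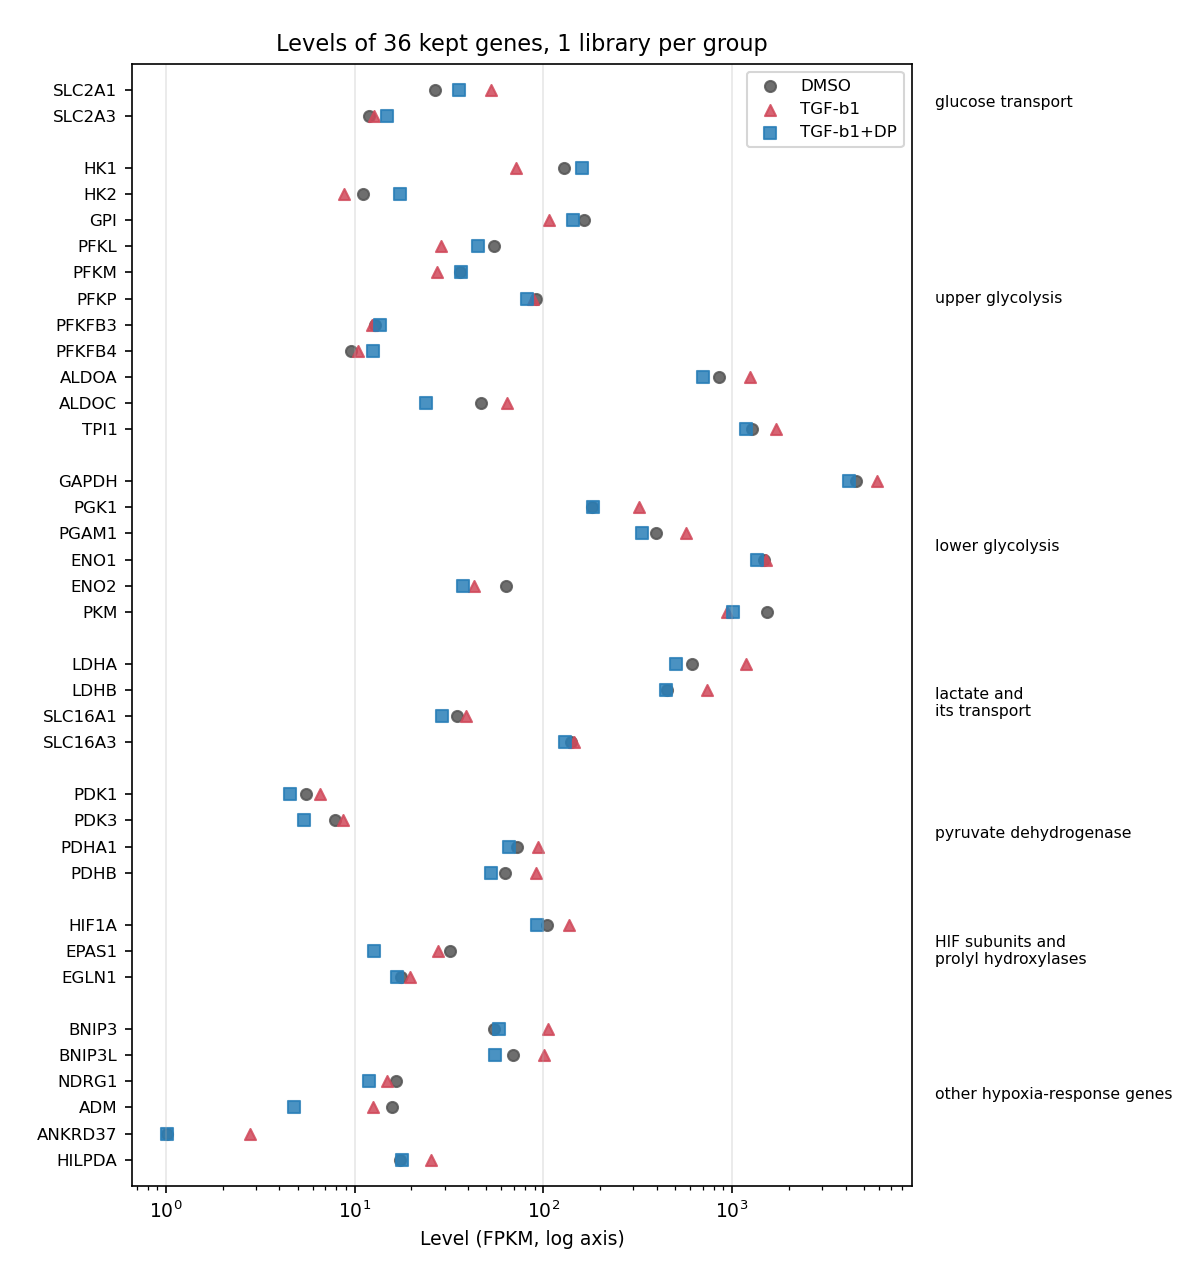
Level of each of the 36 kept genes in FPKM (log axis), 1 point per library, grouped by role. The TGF-b1 point lies to the right of both others for LDHA, PGK1, SLC2A1 and BNIP3 and to the left for HK1 and PFKL, and the TGF-b1+DP point lies apart to the left for ADM and EPAS1.

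The libraries also differed across all genes. The summed FPKM was 443566, 546754 and 429399, highest in the TGF-b1 library. Between TGF-b1 and DMSO the 3761 kept genes with the shortest transcripts had a median difference of 0.22, and the 3760 with the longest had -0.37. Differences throughout are log2((FPKM+1)/(FPKM+1)), which understates those of low genes. These medians were -0.38 and 0.32 when DP was set against TGF-b1 alone, and -0.14 and -0.05 when it was set against DMSO. Member transcripts ran from 1370 to 14193 bases, so a length-adjusted difference, which sets a gene against others of like transcript length and GC content, is given where it bears on a result. For some results an adjustment that also took in abundance is given, and abundant members are set beside other abundant genes. The part of length and abundance in the results was not tested otherwise.

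**Figure D2:**
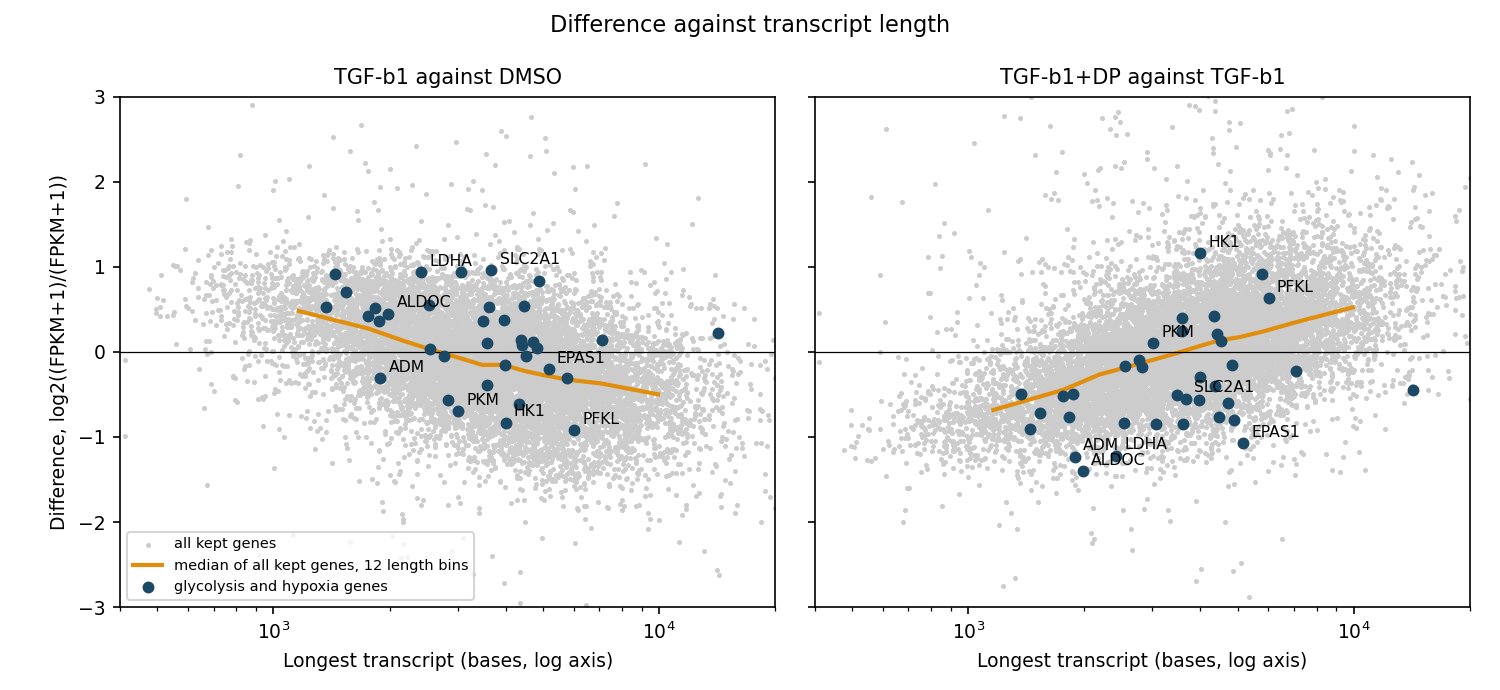
Difference of each kept gene (log2 scale) against the length of its longest transcript (bases, log axis) for TGF-b1 minus DMSO (left) and TGF-b1+DP minus TGF-b1 (right), with the median of all kept genes in 12 length bins as a line (35 and 44 genes lie outside the axes). The line falls with length on the left and climbs on the right, and SLC2A1 lies above it on the left while EPAS1 and PDK1, the member with the longest transcript, lie below it on the right.

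The first comparison asks how TGF-b1 alone bore on these genes. No member was higher or lower than in DMSO by at least 1 on the log2 scale, a 2-fold difference, where 2.31% of all kept genes were higher and 6.73% lower by that amount. At a 1.5-fold difference 6 of 36 members were higher (12.3% of all kept genes) and 4 lower (20.9%). The 6 were SLC2A1, LDHA, BNIP3, ANKRD37, PGK1 and LDHB, and the 4 were PFKL, HK1, PKM and GPI. Of the members 24 lay above 0 (42.6% of all kept genes) and 12 below (57.2%). The member median was 0.14, against -0.10 over all kept genes, and with libraries scaled to the same total FPKM it was below 0, at -0.15 against -0.37.

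SLC2A1 encodes GLUT1, the main glucose importer of many cultured cells (gene ID 6513, chromosome 1, 42925375 to 42959176, GRCh38). It was at 26.6, 52.9 and 35.9 FPKM. The TGF-b1 library was thus the high one, with a difference of 0.96 from DMSO, which 97.3% of kept genes lay below. Length-adjusted, it was 1.32. SLC2A3, which encodes GLUT3, was at 11.9, 12.7 and 14.8 FPKM, so the ratio of SLC2A1 to SLC2A3 was 2.23, 4.16 and 2.42. SLC2A3 shares near-identical sequence with the measured gene SLC2A14, and its value is less certain.

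LDHA, the lactate dehydrogenase subunit that favours lactate formation (chromosome 11, 18394388 to 18408425), was at 618, 1183 and 506 FPKM. LDHB, the other main subunit, was at 451, 735 and 446 FPKM. Both were high in the TGF-b1 library, with differences from DMSO of 0.94 and 0.70, or 0.65 and 0.24 length-adjusted. An adjustment that also took in abundance left 0.22 and -0.13. SLC16A3, which encodes the lactate exporter MCT4, was at 140, 145 and 130 FPKM, and SLC16A1, which encodes MCT1, at 35.1, 38.7 and 29.03. Neither transporter differed from DMSO by more than 0.14 in TGF-b1 as deposited, but SLC16A3 was at 0.74 length-adjusted and 0.44 with abundance added. SLC16A3 overlaps exons of CSNK1D on the opposite strand.

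The upper steps of the chain had their lowest levels in TGF-b1 for several enzymes. HK1, the hexokinase found in most tissues (chromosome 10, 69269984 to 69401884), was at 128, 71.5 and 161 FPKM. PFKL, the liver-type phosphofructokinase, was at 55.2, 28.8 and 44.9 FPKM, and GPI, glucose phosphate isomerase, at 165, 108 and 144. The TGF-b1 library was the low one for all 3 genes, with differences from DMSO of -0.83, -0.92 and -0.61. Length-adjusted, these were -0.47, -0.10 and -0.20. PFKM, which overlaps exons of SENP1, was at 36.3, 27.4 and 36.5 FPKM. PFKP, the platelet-type subunit, was at 91.3, 88.4 and 82.1 FPKM and was the most abundant phosphofructokinase in each library. HK2, the inducible hexokinase, was at 11.2, 8.77 and 17.4 FPKM. PFKFB3 and PFKFB4, which set the level of an allosteric activator of phosphofructokinase, ranged from 9.62 to 13.7 FPKM.

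Below the phosphofructokinase step several enzymes were at their highest in TGF-b1. Of the 6 lower glycolysis genes 1, PGK1, was higher than in DMSO by 1.5-fold (12.3% of all kept genes). The median of those 6 was 0.19, against -0.10 over all kept genes. With the same total FPKM it was -0.11 against -0.37, and with abundance adjusted -0.23 against -0.01. PGK1, phosphoglycerate kinase, was at 181, 321 and 184 FPKM (a difference from DMSO of 0.83, or 0.96 length-adjusted). ALDOA, the main aldolase, was at 851, 1250 and 700 FPKM (0.55). PGAM1, phosphoglycerate mutase, was at 396, 568 and 333 FPKM (0.52) and shares near-identical sequence with PGAM4. Each of these genes was highest in the TGF-b1 library, with the other libraries closer to each other. With abundance adjusted, ALDOA was at 0.22 and PGAM1 at 0.03. GAPDH had a difference of 0.36, which was 0.06 with the same total FPKM and -0.07 when adjusted for length, GC content and abundance.

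PKM and ENO2 departed from their neighbours. PKM, pyruvate kinase (chromosome 15, 72199029 to 72231822), was at 1526, 938 and 1009 FPKM. ENO2, a second enolase gene best known from neurons, was at 63.4, 42.7 and 37.6 FPKM. For both the DMSO library was the high one, with differences of -0.70 and -0.56 in TGF-b1, and of -0.60 and -0.74 in TGF-b1+DP, and these differences from DMSO were below 0 under each alternative scaling and correction run. The table gives 1 value per gene, so the splice forms of PKM were not told apart.

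Ratios within a library do not depend on how the libraries are scaled. The ratio of LDHA to PKM was 0.405, 1.26 and 0.501. The ratio of LDHA to PDHA1, the catalytic alpha subunit of pyruvate dehydrogenase, was 8.47, 12.6 and 7.73. For both ratios TGF-b1 stood above the other libraries, which lay closer to each other. LDHA to LDHB was 1.37, 1.61 and 1.14. Scaling cannot shift these ratios, but a trend with transcript length can.

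**Figure D3:**
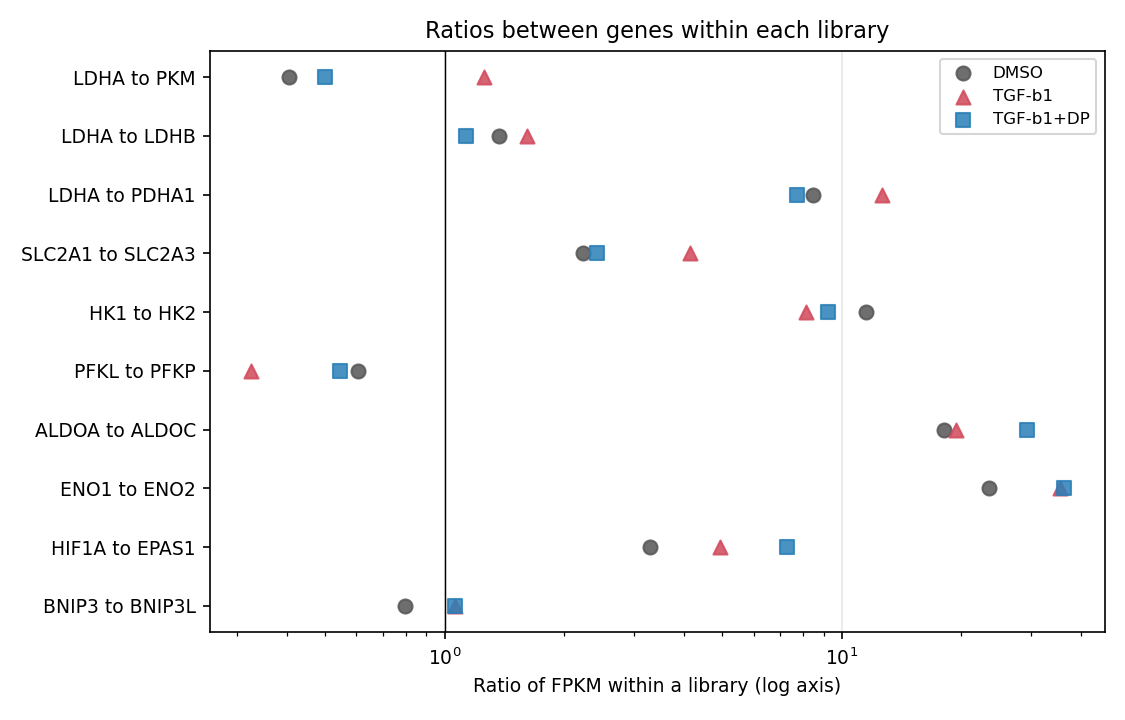
Ratio of the FPKM values of gene pairs within each library (log axis), 1 point per library. TGF-b1 is the highest of the 3 for LDHA to PKM and SLC2A1 to SLC2A3 and the lowest for PFKL to PFKP, while HIF1A to EPAS1 and ALDOA to ALDOC are highest in TGF-b1+DP.

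The pyruvate dehydrogenase genes split into abundant subunits and less abundant kinases. PDHA1 was at 72.9, 93.8 and 65.5 FPKM, and PDHB, the beta subunit, at 62.6, 91.2 and 53.1. The kinases that inhibit the complex among the members were much lower, with PDK1 at 5.52, 6.60 and 4.57 FPKM and PDK3 at 7.91, 8.68 and 5.40. PDK2, a kinase outside the set, was at 21.7, 13.2 and 12.3 FPKM. All 4 members had their highest level in TGF-b1 and their lowest in TGF-b1+DP, with differences of 0.12 to 0.54 between TGF-b1 and DMSO. PDK1 and PDK3 were at -0.04 and -0.15 with the same total FPKM. PDHA1 overlaps exons of MAP3K15 on the opposite strand.

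Among the oxygen-sensing genes, HIF1A was at 105, 137 and 92.3 FPKM, EPAS1 at 32.0, 27.7 and 12.7, and EGLN1 at 17.7, 19.7 and 16.7. EGLN3, which HIF is known to induce in many cell types, was listed at 0.02, 0.02 and 0 FPKM, and CA12, a membrane carbonic anhydrase, at 0.14, 0.05 and 0.09. HIF1A differed from DMSO by 0.38 in TGF-b1, or 0.12 length-adjusted and -0.15 with abundance added. EPAS1 differed by -0.20, or 0.30 length-adjusted.

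Hypoxia-response genes went different ways in TGF-b1. BNIP3, a mitophagy receptor (chromosome 10, 131966455 to 131982013), was at 55.1, 106 and 58.6 FPKM, and its relative BNIP3L at 69.4, 100.4 and 55.2. The TGF-b1 library was the high one for both, with differences from DMSO of 0.94 and 0.53, or 1.08 and 0.31 length-adjusted. ANKRD37, a low gene whose exons overlap UFSP2, was at 0.91, or 0.24 length-adjusted. HILPDA, which inhibits lipolysis at lipid droplets, was at 17.4, 25.5 and 17.8 FPKM (0.53, or 0.11 length-adjusted). NDRG1 was at 16.6, 14.8 and 11.9 FPKM and ADM, the peptide hormone adrenomedullin, at 15.8, 12.6 and 4.79. Neither was high in TGF-b1, with differences of -0.15 (0.02 under median-of-ratios scaling and 0.18 length-adjusted) and -0.31. BNIP3L overlaps exons of PNMA2.

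Which members passed a 2-fold difference in TGF-b1 depended on the scaling. Under median-of-ratios scaling, which scales each library by its median gene-wise ratio to the geometric mean of the libraries, 5 were higher, namely SLC2A1 (1.14), LDHA (1.12), BNIP3 (1.12), ANKRD37 (1.02) and PGK1 (1.01). Of all 11321 genes kept under that scaling, 583 were higher and 486 lower. With the same total FPKM 3 members were lower, namely PFKL (-1.21), HK1 (-1.13) and PKM, at the threshold itself. Of all 11338 genes kept at the same total, 1568 were lower and 103 higher. Length-adjusted, SLC2A1 and BNIP3 were higher by at least 1, and SLC2A1 (1.25) also when abundance was added. Of all 11280 kept genes with a length, 252 were higher length-adjusted and 227 with abundance added.

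**Figure D4:**
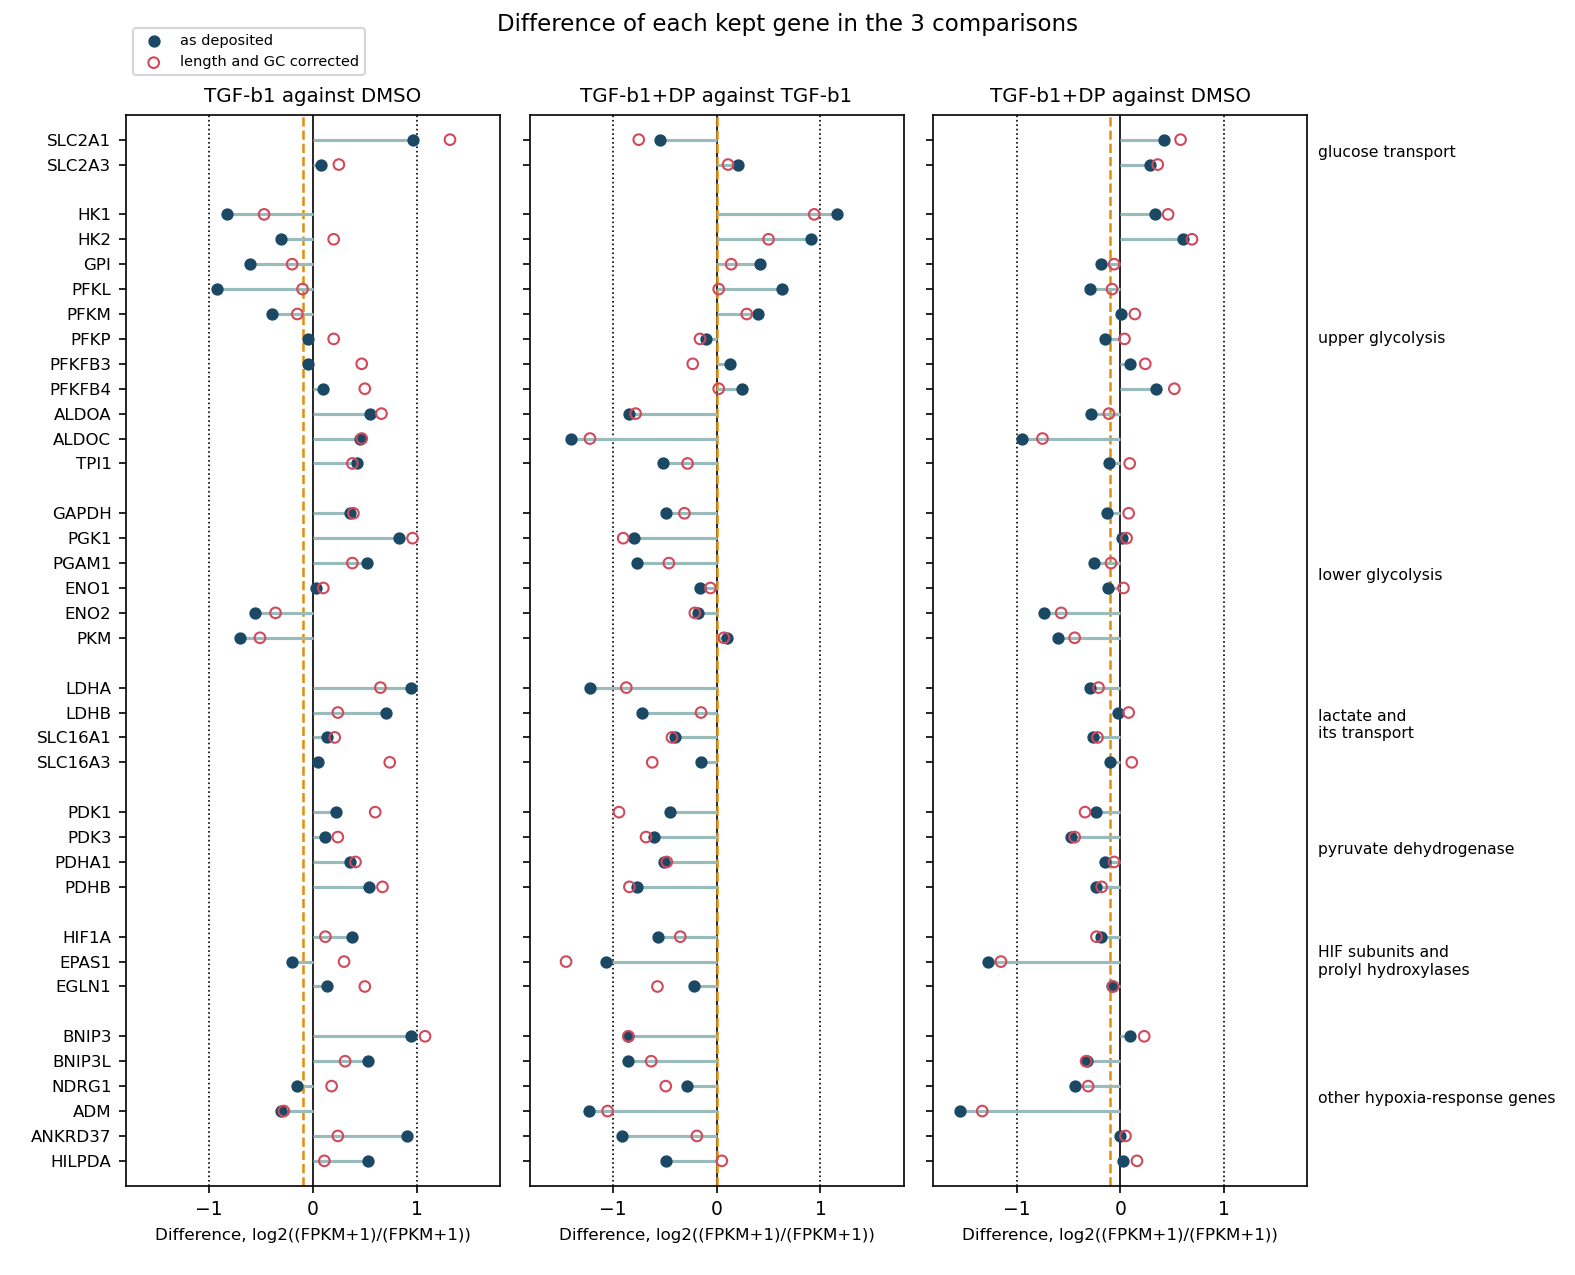
Difference of each kept gene (log2 scale) in the 3 comparisons, as deposited (filled) and length-adjusted (open, named length and GC corrected in the key). Dotted lines mark 1 and -1, and the dashed line the median of all kept genes. On the left all filled points lie between -0.92 and 0.96, in the middle 27 of 36 lie below 0, and on the right ADM and EPAS1 lie beyond -1.

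The next comparison asks what DP added to TGF-b1. Of 36 members 1 was higher by at least 1, HK1 (6.19% of all kept genes were), and 4 were lower, ALDOC, ADM, LDHA and EPAS1 (4.26%). At 1.5-fold 3 were higher (16.9%) and 13 lower (16.8%). The median was -0.49, against 0.00 over all kept genes, and 27 members lay below 0 (50.2% of all kept genes) and 9 above (49.7%). All 4 lactate genes, all 4 pyruvate dehydrogenase genes, all 3 kept HIF subunit and hydroxylase genes and all 6 other hypoxia-response genes lay below 0, except SLC16A3, EGLN1 and NDRG1 with the same total FPKM (0.19, 0.11 and 0.03) and, length-adjusted, HILPDA (0.05) and, with abundance added, LDHB (0.13). Of 11 upper glycolysis genes, a list that includes ALDOA, ALDOC and TPI1, 7 lay above 0. The median of the 11 was 0.24, or 0.02 length-adjusted and 0.03 with abundance added. Of the 7, PFKFB3 (0.13) was at -0.23 length-adjusted and PFKFB4 (0.24) at -0.04 with abundance added. With the same total FPKM the member median was -0.16 against 0.29. This comparison shares the TGF-b1 library with the first, so a departure of that library alone enters both with opposite signs.

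Abundant genes as a class differed in the same direction. The 832 kept genes that averaged 100 FPKM or more, 13 members among them, had a median of -0.57 for DP with TGF-b1 against TGF-b1, and those 13 members had -0.52. Between TGF-b1 and DMSO the same medians were 0.46 and 0.38. Abundant members thus lay near other abundant genes in both comparisons. Among the 3760 genes with the longest transcripts, by contrast, the 8 members had a median of -0.34 and all genes 0.32.

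ALDOC, an aldolase best known from brain (chromosome 17, 28573115 to 28577264), was at 47.0, 64.4 and 23.8 FPKM. The TGF-b1+DP library was the low one, by -1.40 against TGF-b1 and -0.95 against DMSO. ALDOA was at -0.84 against TGF-b1, and the ratio of ALDOA to ALDOC was 18.1, 19.4 and 29.4. ALDOC was the 1 member that stayed lower than in TGF-b1 by at least 1 with the same total FPKM (-1.06), and it was at -1.22 length-adjusted. Of all 11338 genes kept at the same total, 121 were lower by at least 1.

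ADM (chromosome 11, 10304680 to 10307397) and EPAS1 (chromosome 2, 46293667 to 46386703) had levels in TGF-b1+DP below both other libraries. EPAS1 encodes HIF-2 alpha, the second oxygen-regulated subunit. ADM differed from TGF-b1 by -1.23 and from DMSO by -1.54, and EPAS1 by -1.07 and -1.27. Length-adjusted, the 4 values were -1.05, -1.33, -1.45 and -1.15. With the same total FPKM neither reached 1 against TGF-b1 (-0.92 and -0.73), but both did against DMSO (-1.51 and -1.23). The ratio of HIF1A to EPAS1 was 3.29, 4.95 and 7.27.

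LDHA was at -1.22 against TGF-b1 and -0.29 against DMSO. Its difference from TGF-b1 was -0.88 with the same total FPKM and -0.87 length-adjusted, below 2-fold under both, and -0.54 with abundance added. BNIP3, BNIP3L and PGK1 lay between -0.80 and -0.85 against TGF-b1. Of these 3, BNIP3 (0.09) and PGK1 (0.02) lay close to DMSO and BNIP3L at -0.32. SLC2A1 was at -0.55 against TGF-b1 and 0.42 against DMSO, between the levels of the other libraries.

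Hexokinases had their highest levels in TGF-b1+DP. HK1 was at 1.16 against TGF-b1 and 0.33 against DMSO, and HK2 at 0.91 and 0.60. Length-adjusted, HK1 was at 0.94 and HK2 at 0.50 against TGF-b1, below 2-fold, and with the same total FPKM they were at 1.5 and 1.23. Against TGF-b1, PFKL was at 0.63, GPI at 0.42 and PFKM at 0.40 as deposited, and at 0.02, 0.14 and 0.29 length-adjusted. PKM was at 0.10. PFKFB4, which overlaps exons of UCN2, was at 9.62, 10.4 and 12.5 FPKM, and PFKFB3 at 12.9, 12.4 and 13.7.

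The sequence upstream of the 5 genes past 2-fold in that comparison is shown to let the HIF recognition core be seen beside their levels. Each is 250 bases before and 50 after the RefSeq gene start (GRCh38.p14), read 5′ to 3′ on the gene's strand. Capitals mark ACGTG or GCGTG, or their reverse complements CACGT and CACGC. The palindrome CACGTG counts as 2 overlapping matches.
ALDOC: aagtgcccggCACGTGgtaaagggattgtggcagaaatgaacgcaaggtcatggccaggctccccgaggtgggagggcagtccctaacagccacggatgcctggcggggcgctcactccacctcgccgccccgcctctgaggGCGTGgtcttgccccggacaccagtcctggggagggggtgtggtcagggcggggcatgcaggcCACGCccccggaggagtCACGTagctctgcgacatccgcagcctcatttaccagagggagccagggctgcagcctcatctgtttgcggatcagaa
LDHA: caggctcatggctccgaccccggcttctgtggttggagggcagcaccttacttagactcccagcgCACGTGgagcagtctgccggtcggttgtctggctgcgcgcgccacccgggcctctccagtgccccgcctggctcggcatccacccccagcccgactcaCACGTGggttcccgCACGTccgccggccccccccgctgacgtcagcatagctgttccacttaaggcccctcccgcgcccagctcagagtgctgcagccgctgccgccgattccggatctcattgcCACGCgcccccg
ADM: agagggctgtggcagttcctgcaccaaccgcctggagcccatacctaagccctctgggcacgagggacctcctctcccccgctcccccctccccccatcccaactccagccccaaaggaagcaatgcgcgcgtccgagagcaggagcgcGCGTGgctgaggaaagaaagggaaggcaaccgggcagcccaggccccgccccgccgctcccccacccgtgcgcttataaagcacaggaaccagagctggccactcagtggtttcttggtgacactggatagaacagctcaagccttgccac
EPAS1: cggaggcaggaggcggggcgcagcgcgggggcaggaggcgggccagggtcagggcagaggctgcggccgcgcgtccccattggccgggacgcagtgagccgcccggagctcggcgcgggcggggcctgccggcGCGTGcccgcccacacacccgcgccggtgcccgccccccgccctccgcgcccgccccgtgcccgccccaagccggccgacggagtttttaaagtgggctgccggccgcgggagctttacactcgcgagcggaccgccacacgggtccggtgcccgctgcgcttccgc
HK1: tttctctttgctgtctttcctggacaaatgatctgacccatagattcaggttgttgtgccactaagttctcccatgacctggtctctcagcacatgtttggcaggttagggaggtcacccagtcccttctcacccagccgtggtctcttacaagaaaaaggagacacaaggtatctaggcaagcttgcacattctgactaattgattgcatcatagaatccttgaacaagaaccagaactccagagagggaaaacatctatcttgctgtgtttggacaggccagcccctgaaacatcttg

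LDHA held 6 matches and ALDOC 5 (chr11:18394313-18394612, plus strand, and chr17:28576846-28577145, minus strand). ADM (chr11:10304823-10305122, plus strand) and EPAS1 (chr2:46297157-46297456, plus strand) held 1 each, and HK1 (chr10:69269750-69270049, plus strand) held 0. GENCODE lists 8 coding transcript starts of HK1 spread over 48860 bases, and this window covers the RefSeq gene start alone. Among kept members, 31 had a promoter in the table and 24 of those (77.4%) held at least 1 match, against 64.3% of 9278 kept genes with a promoter and 48.4% of all 27305. The ACGTG form alone, on either strand, was in 13 of the 31 (41.9%), 27.3% and 21.6%. SLC2A1, which was at 0.96 in TGF-b1, held 1 match, and BNIP3, at 0.94, held 6. ADM and EPAS1, which were low with DP, held 1 each, as did PKM. A match is a run of letters and not a site of binding.

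Set against DMSO, the cells that received TGF-b1 and DP had 2 members lower by at least 1, ADM and EPAS1, and none higher, where 2.88% of all kept genes were lower and 2.45% higher. At 1.5-fold 5 members were lower (10.2%), the others being ALDOC, ENO2 and PKM, and 1 higher, HK2 (5.45%). The member median was -0.15, against -0.10 over all kept genes, with 10 members above 0 (36.9% of all kept genes) and 25 below (62.8%), and 0.01 under median-of-ratios scaling. Several enzymes of the chain lay close to DMSO. GAPDH (-0.13, or 0.03 under median-of-ratios scaling), TPI1 (-0.11, or 0.06), ENO1 (-0.12, or 0.04) and PGK1 (0.02) were all within 0.15. ADM and EPAS1 stayed lower than in DMSO by at least 1 under each of the 7 other settings of filter, pseudocount, scaling and correction.

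Genes outside the set were counted in the same way. Of 25 further HIF targets, 4 were higher in TGF-b1 than in DMSO by at least 1 and none lower (2.31% and 6.73% of all kept genes). The median of the 25 was 0.56, against -0.10 over all kept genes. With the same total FPKM 3 were higher and 3 lower, FUT11, KDM4B and ZNF395, where 103 and 1568 of all 11338 kept genes were. The median there was 0.28, against -0.37 over all kept genes. Length-adjusted, 2 were higher, BHLHE40 and VEGFA, where 252 of 11280 kept genes were. BHLHE40, a transcriptional repressor, was at 33.4, 127 and 105 FPKM. VEGFA, the angiogenic growth factor, was at 14.7, 43.3 and 43.1 FPKM, and PLOD2, a collagen lysyl hydroxylase, at 17.1, 43.7 and 50.3. These 3 genes were high in both libraries that received TGF-b1, with differences from DMSO of 1.90, 1.5 and 1.31 in TGF-b1 and 1.63, 1.49 and 1.51 in TGF-b1+DP. Length-adjusted, PLOD2 was at 0.96 in TGF-b1. FAM162A, a mitochondrial protein gene, was at 9.08, 21.4 and 9.33 FPKM, high in TGF-b1 alone (1.15 from DMSO, and -1.12 once DP was added, or 0.87 and -0.82 length-adjusted). Against TGF-b1 alone 1 of the 25 was higher with DP, the transferrin receptor TFRC (15.2 and 37.6 FPKM, 1.26), and FAM162A was lower. The shares over all kept genes were 6.19% and 4.26%. The median of the 25 was -0.23, against 0 over all kept genes. With the same total FPKM it was 0.08 against 0.29, and FAM162A (-0.79) did not pass. At that total TFRC and FUT11 were higher, where 1440 of all 11338 kept genes were. Against DMSO 5 were higher with DP, namely BHLHE40, VEGFA, PLOD2, ANGPTL4 (1.25) and TFRC (1.06), and none lower (2.45% and 2.88% of all kept genes). ANGPTL4 was a low gene, at 0.42, 1.11 and 2.37 FPKM. It passed the filter on the mean only through its TGF-b1+DP value, so its call is not independent of that filter.

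The oxygen-sensing machinery outside the set split by gene. Of 13 kept genes 1 was higher in TGF-b1 than in DMSO by at least 1, ELOC (38.4, 84.3 and 38.2 FPKM), a subunit of the VHL ligase, and none lower (2.31% and 6.73% of all kept genes). Length-adjusted, 2 were higher, ELOC (1.13) and SIAH2 (1.01), where 252 of 11280 kept genes were. SIAH2 was at 15.9, 29.2 and 14.9 FPKM, with a difference of 0.84 as deposited. With the same total FPKM none was higher and 4 were lower, ARNT2, CREBBP, EP300 and VHL. Of all 11338 genes kept at the same total, 103 were higher and 1568 lower. VHL itself was at 23.9, 12.6 and 21.0 FPKM, with a difference of -0.87, or -0.75 length-adjusted. ARNT2 (-0.94), CREBBP (-0.86) and EP300 (-0.84) lay at -0.33, 0.04 and -0.08 length-adjusted. With DP 4 were lower than in TGF-b1 by at least 1 (4.26% of all kept genes), ELOC (-1.12), ELOB (-1.11), RBX1 (-1.05) and SIAH1 (-1.03). Length-adjusted, these were at -1.01, -0.63, -0.50 and -0.73. The calls turned with the same total FPKM, with none lower and 4 higher, ARNT2, CREBBP, EP300 and VHL, and a median of 0.43 where it had been 0.09. All kept genes moved in the same direction, to a median of 0.29 where it had been 0. Of 11338, 1440 were higher and 121 lower. Against DMSO none of the 13 passed with DP (2.45% of all kept genes were higher and 2.88% lower), and their differences ran from -0.32 to 0.16.

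Pyruvate carriers and other glycolysis and transport genes added few calls. MPC2, a subunit of the mitochondrial pyruvate carrier, was at 57.8, 96.5 and 40.2 FPKM and MPC1 at 31.8, 62.1 and 31.4. Adding DP to TGF-b1 went with a difference of -1.24 for MPC2 (-0.77 length-adjusted and -0.90 with the same total FPKM). MPC2 was the 1 call among 8 kept genes of that list, where 4.26% of all kept genes were lower by at least 1. Among 6 further glycolysis genes and 6 further transporters none passed in any comparison, where 2.31% to 6.73% of all kept genes passed in a given direction.

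**Figure D5:**
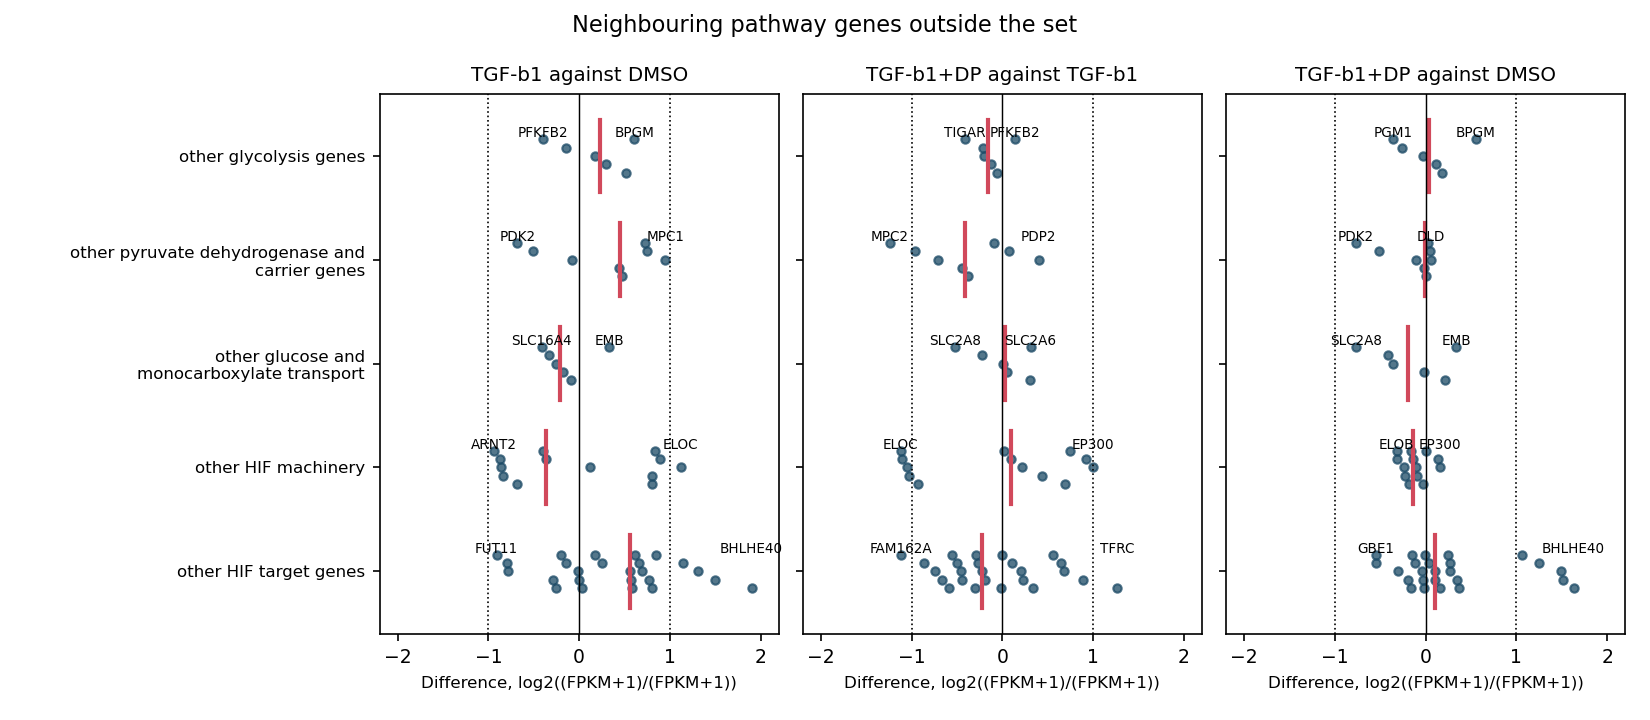
Difference (log2 scale) of kept genes from 5 lists outside the set in the 3 comparisons, 1 point per gene, with the list median as a bar and the lowest and highest gene named. Dotted lines mark 1 and -1. BHLHE40 lies beyond 1 in both comparisons with DMSO, and the oxygen-sensing machinery spreads from -0.94 to 1.12 on the left but stays within -0.32 to 0.16 on the right.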

How the data were processed

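RNA from 3 LX-2 libraries was sequenced. The authors deposited 1 table of FPKM values with 1 column per library, to 2 decimals. The submitters' processing notes name the build GRCh38.p13 and, with no role or version, BWA, Bowtie, Cufflinks and Cuffdiff. Which annotation and strand setting applied was not stated. Of 17596 lines, 20 held annotation text in place of a gene and were left out.

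Differences were log2((FPKM+1)/(FPKM+1)) of values as deposited, over genes averaging at least 1 FPKM. With 1 library per group, a difference of at least 1 was counted and no test was made. Members and lists were chosen with earlier results of these data known. Every member was named, with the extreme and called genes of the other lists.

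Length and GC content came from the longest GENCODE 29 transcript, which 98.6% of genes and all 36 kept members had. The length-adjusted difference subtracted a least-squares fit of cubic terms over all kept genes. Genes were taken to share reads at an exon overlap of at least 100 bases or a match of at least 200 bases at 97% identity (minimap2 2.31), which held for 8 kept members with another measured gene and for 23 members with any annotated gene. Promoters were RefSeq's. No protein sequences were used here. The differences, the length adjustment and both scalings were tried on simulated libraries with known fold changes and a length trend. That simulation held no GC or abundance trend, and the adjustment with abundance was not tried on it. Python 3.11.15, numpy 2.4.6, pandas 2.3.3 and matplotlib 3.10.9 were used.

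The depth of the libraries is unknown. Low FPKM values times length clustered at steps of 0.0496, 0.0473 and 0.0494, with 56.7% to 59.9% of values within 0.2 of a whole step, where an even spread gives 40.0%, so whole reads were not recovered and no interval was computed. Another pathway list is not reported here.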

Additional observations from a re-analysis of the deposited data

How the results depend on the processing

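For TGF-b1 against DMSO 0 members were higher and 0 lower (2.31% and 6.73% of all kept genes). Under median-of-ratios scaling 5 were higher (583 of 11321 kept genes), length-adjusted 2 (252 of 11280) and with abundance added 1 (227 of 11280). At a 1.5-fold threshold 6 were higher (12.3%). At a pseudocount of 0.1 FPKM 1 was higher, and the share over all kept genes was not computed there. With the same total FPKM 3 were lower (1568 of 11338), and at 1.5-fold 4 (20.9%). The member median of 0.14 was 0.32, 0.27 and -0.15 under median-of-ratios scaling, the length adjustment and the same total. Over all kept genes the median of -0.10 was 0.05, -0.02 and -0.37 under the same settings. For TGF-b1+DP against TGF-b1, with 1 higher and 4 lower, 2 were higher and 1 lower at the same total, 3 and 13 at 1.5-fold, and 0 were higher length-adjusted. Over all kept genes 1440 of 11338 were higher and 121 lower at the same total, and 354 of 11280 were higher length-adjusted. At 1.5-fold 16.9% were higher and 16.8% lower. The member median of -0.49 was -0.16 with the same total and -0.26 with length, GC content and abundance adjusted. The medians over all kept genes were 0.29 and -0.01. For TGF-b1+DP against DMSO, 1 was higher and 5 lower at 1.5-fold (5.45% and 10.2% of all kept genes). The member median of -0.15 was 0.01 under median-of-ratios scaling, against 0.04 over all kept genes. The cause of these shifts was not tested. The 8 members that share reads with another measured gene were also left out, a choice made after seeing the data. None of them passed 2-fold on values as deposited, so those counts could not change. ALDOC, which did pass, overlaps exons of an annotated antisense gene that was not measured. No paired analysis was possible because each group had 1 library. Without replicates and read counts, no difference has an error.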
